A study of Mus musculus with 2 samples.

Results

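The circular RNAs (circRNAs) described here come from solute carrier genes, the genes whose symbols begin with Slc or Slco. They were taken as every circRNA whose deposited host gene symbol has one of these prefixes followed by a digit, and 462 of the 31496 circRNAs in the files met this rule, from 154 of 8174 host genes. A circRNA is a ring of exons closed by back-splicing, in which the end of a downstream exon is joined to the start of an upstream one. Reads that cross this join, called junction reads, are the measure used throughout. Each circRNA has a single such join, so its reads do not scale with the length of the gene.

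Mice of the strain Lgr5GFP-CreERT2, aged 2 months, provided intestinal cells that were separated by fluorescence-activated sorting. The Lgr5+ fraction carries the label ISC (intestinal stem cells) and the Lgr5- fraction the label non-ISC, and all animals carried the reporter allele. The sources used here do not say how many animals were used, whether they were pooled or which segment of intestine was taken. RNA was depleted of ribosomal RNA and digested with RNase R, which degrades linear RNA, before sequencing. Each label has 1 library, so there is no replicate check and no p-value. A ratio here is a gene's share of the junction reads labelled ISC divided by its share of those labelled non-ISC, with exact 95% intervals for counting error only.

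The libraries held 156582 (labelled ISC) and 76331 (labelled non-ISC) junction reads in all. A count of 0 was set at 3 reads where a fold is given, which is 19.2 and 39.3 per 1000000 junction reads. Such folds leave out the counting error of the other library, which the intervals include. The labels were set beside marker genes of the cells a sort of intestine could hold. Lgr5 itself had 0 junction reads labelled ISC and 7 labelled non-ISC. Of 19 epithelial markers, 3 had reads in the library labelled ISC, 7 in sum, and 14 in the library labelled non-ISC, 483 in sum (ratio 0.00706, 0.00283 to 0.0147). Epcam, Cdh1, Vil1, Krt8 and Krt20 were among those at 0 in the library labelled ISC. Of 16 T lineage markers, 14 had reads labelled ISC, 6709 in sum, and 6 had reads labelled non-ISC, 122 in sum (ratio 26.8, 22.4 to 32.3), and 4292 of the 6709 were of Satb1. B lineage and myeloid markers had at most 9 reads in either library. The 10 stromal markers had 69 reads against 7, of which Pecam1 had 67 and 7. The defining markers therefore go against the labels, and each direction below is one between libraries as labelled. These markers move with the transporter groups below, and their part in those results was not tested. In sorted bulk RNA, fewer cells of a type and less RNA per cell cannot be told apart.

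Solute carriers are membrane proteins that move sugars, amino acids, ions, metals, vitamins and metabolites across the plasma membrane and the membranes of organelles. In the intestine, enterocytes place uptake carriers in the brush border and release carriers in the basolateral membrane, while all cells need carriers of mitochondria, lysosomes and the secretory pathway. To compare these kinds, 1 list was made of carriers known from intestinal epithelium and 1 of widely expressed carriers, called ubiquitous here. The ubiquitous list also took in all Slc25a and Slc35 carriers by symbol, 19 and 13 host genes, without a choice gene by gene. Of the 154 host genes, 31 fell in the intestinal list, 79 in the ubiquitous list and 44 in neither. The rule on symbols also took in 3 genes that are named after a carrier without being one. These are Slc4a1ap (9 reads labelled ISC and 2 labelled non-ISC), Slc7a6os (2 and 0) and Slc9a3r1 (1 and 4).

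The back-splice joins of the leading circRNAs are shown because each one is the sequence that a junction read has to cross. They were built from GENCODE release M21 transcripts on GRCm38, 5′ to 3′ on the strand of the gene. The last bases of the downstream exon are in lower case and the first bases of the upstream exon in capitals. The Slc9a9 circRNA ends inside exon 16, so its lower-case bases are the last before that end and not the last of the exon. The first 3 had the most reads labelled ISC, and the next 3 had the most reads labelled non-ISC. The last pair are leading circRNAs of sugar and inositol carriers with no reads labelled ISC, chosen after their values were seen.
Slc9a9 exons 15 to 16, chr9:95227188-95229200 (+): caaaccttatcacatATACCTGAAACCCAT
Slc7a11 exons 2 to 6, chr3:50417988-50438915 (-): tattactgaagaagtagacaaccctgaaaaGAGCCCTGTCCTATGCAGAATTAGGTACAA
Slc38a1 exons 2 to 4, chr15:96609856-96624169 (-): gatcctcctctttctGGGTCTCAGGCATCT
Slc7a8 exons 2 to 3, chr14:54758439-54759745 (-): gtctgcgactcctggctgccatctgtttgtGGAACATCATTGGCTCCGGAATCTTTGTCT
Slc43a2 exons 3 to 5, chr11:75543158-75545830 (+): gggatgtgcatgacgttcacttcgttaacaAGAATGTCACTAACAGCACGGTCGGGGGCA
Slc16a10 exons 2 to 3, chr10:40076564-40080807 (-): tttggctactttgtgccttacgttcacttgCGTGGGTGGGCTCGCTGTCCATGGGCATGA
Slc5a1 exons 2 to 5, chr5:33116783-33134707 (+): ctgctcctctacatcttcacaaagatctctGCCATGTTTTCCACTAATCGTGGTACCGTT
Slc5a11 exons 7 to 11, chr7:123247938-123260642 (+): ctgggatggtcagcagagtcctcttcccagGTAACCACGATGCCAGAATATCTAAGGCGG

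The first question was how much of each library solute carriers took up. They gave 1188 junction reads on 186 circRNAs of 84 host genes in the library labelled ISC, and 1137 reads on 229 circRNAs of 100 host genes in the library labelled non-ISC. These reads were 0.759% (0.716 to 0.803) of everything labelled ISC and 1.49% (1.40 to 1.58) of everything labelled non-ISC, a ratio of 0.509 (0.469 to 0.553). The direction depends on the scale: set against library totals (deposited count over deposited RPM) the ratio was 1.43, since all ratios then move up by 1.49 on the log2 scale. Most members were thinly covered, and 58.6% of those labelled ISC and 61.1% of those labelled non-ISC rested on 1 or 2 reads. Over all circRNAs with reads these shares were 54.6% and 57.3%. Among the 362 members with any read, 53 had reads in both libraries, where over all circRNAs 4375 of 26265 did.

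Of the 131 host genes with a junction read, 46 had at least 10 reads over both libraries. Calling a host gene took that many reads, a difference of 2-fold or more and an interval that leaves out 1. By this rule 10 were higher with the ISC label, 21 were lower and 15 were neither. That is 21.7% higher and 45.7% lower, where over all 2920 host genes with enough reads the shares were 26.7% and 22.7%. The median log2 ratio (0.5 read added) of the 46 was -0.37, against 0.16 over all 2920. Scaled to library totals, which multiplies all ratios by 2.82, the split was 23 higher and 14 lower. The shares over all host genes above are not on that scale.

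**Figure D1:**
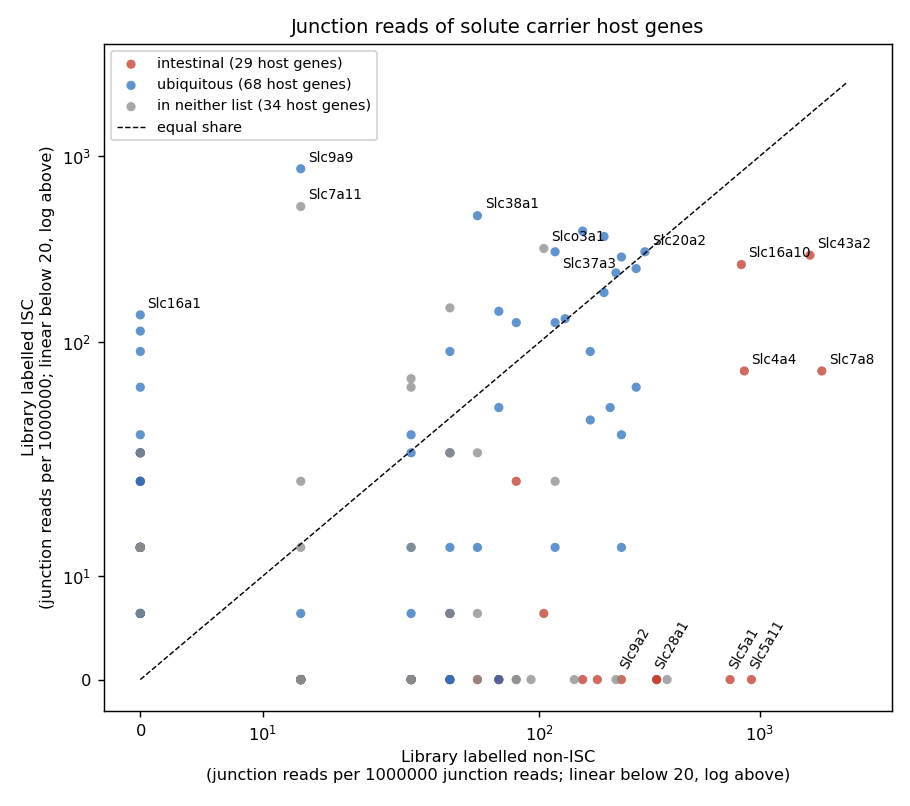
Each point is a solute carrier host gene with a junction read, placed by its junction reads per 1000000 junction reads in the library labelled non-ISC (x axis) and labelled ISC (y axis), with axes linear below 20 and logarithmic above, and coloured by list. The intestinal carriers with many reads lie below the line of equal share, with Slc5a1 and Slc5a11 at 0 reads labelled ISC, while Slc9a9 and Slc7a11 lie far above it with 1 read each labelled non-ISC.

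Carriers known from intestinal epithelium were lower in the library labelled ISC, and by share of junction reads carriers of the ubiquitous list were spread on both sides of 1. The intestinal list held 123 reads labelled ISC and 673 labelled non-ISC, a ratio of 0.0891 (0.0729 to 0.108). The ubiquitous list held 851 and 328, a ratio of 1.26 (1.11 to 1.44). Intestinal carriers thus made up 10.4% (8.68 to 12.2) of solute carrier reads with the ISC label and 59.2% (56.3 to 62.1) with the non-ISC label, and ubiquitous carriers 71.6% (69.0 to 74.2) and 28.8% (26.2 to 31.6). The ratio of the lists' ratios, which does not depend on how the libraries are scaled, was 0.0706 (0.0555 to 0.0892). All 11 intestinal host genes with at least 10 reads were lower, with a median log2 ratio of -5.89, or -3.62 when counts of 0 are set at 3 reads. Of the 26 ubiquitous host genes, 7 were higher, 6 were lower and 13 were neither, and these shares of 26.9% and 23.1% lie near those over all host genes. The summed ubiquitous ratio rests in part on 1 gene: without Slc9a9 it was 1.07 (0.937 to 1.22), and over the Slc25a and Slc35 families alone it was 0.658 (0.469 to 0.926). These 2 families lay on opposite sides of 1. The Slc25a carriers had 44 reads against 16, a ratio of 1.34 (0.742 to 2.55, which includes 1). The Slc35 carriers had 41 against 47, a ratio of 0.425 (0.273 to 0.661). The ubiquitous ratio also depends on the scale. With library totals it was 3.56, with 18 of 26 genes higher and 1 lower. By deposited counts it turned to 0.214, with 8 of 67 higher and 51 lower. The shares over all host genes given above are for junction read shares, so these calls have no such share beside them.

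**Figure D2:**
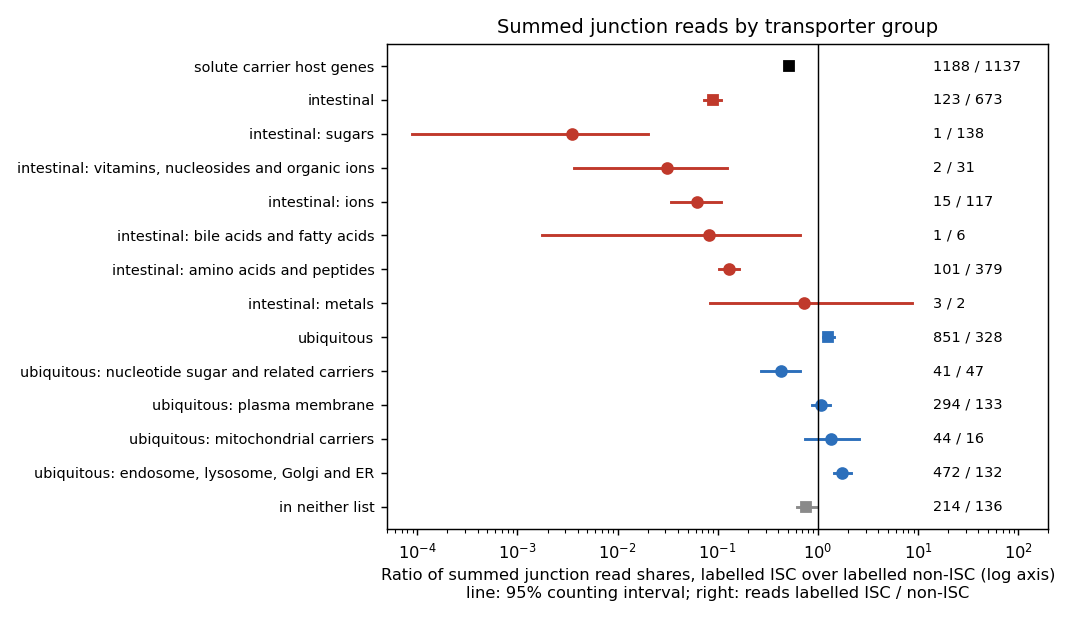
Squares are lists and circles are their groups, placed by the ratio of summed junction read shares, labelled ISC over labelled non-ISC, on a log axis, with lines for 95% counting intervals and the reads of both libraries at the right. The intestinal groups other than the metal carriers lie below 1 with intervals that exclude it, and the ubiquitous groups lie between 0.425 and 1.74.

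Among intestinal carriers, those of amino acids had the most reads. Slc43a2, a uniporter that releases branched-chain and other neutral amino acids from epithelial cells, had 46 reads labelled ISC and 129 labelled non-ISC, a ratio of 0.174 (0.121 to 0.245). Slc7a8, the light chain of a neutral amino acid exchanger, had 11 against 146, a ratio of 0.0367 (0.0179 to 0.0677). Slc16a10, which carries aromatic amino acids, had 41 against 63, a ratio of 0.317 (0.209 to 0.478). It was the intestinal host gene nearest to an equal share among those called, and with library totals its ratio was 0.894 with an interval that includes 1 (0.588 to 1.35). These 3 genes are the intestinal amino acid carriers with more than 10 reads in both libraries.

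The other carriers of amino acids had reads mainly or only in the library labelled non-ISC. Slc3a1, the heavy chain of the cystine and dibasic amino acid transporter, had 0 against 14. Slc7a7, the light chain of the basolateral exchanger of cationic amino acids, had 0 against 12. With a missing entry counted as 0 and 3 reads put in its place, these are 9.57-fold and 8.21-fold lower. The upper ends of their ratio intervals were 0.147 and 0.175. Slc36a1, a proton-coupled carrier of small amino acids, had 3 against 6, too few reads for the rule. As a group, the 9 amino acid and peptide carriers had 101 reads against 379, a ratio of 0.130 (0.103 to 0.162).

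Sugar and inositol carriers stood lowest among the intestinal groups in the plot of summed ratios. Slc5a1, the sodium-coupled glucose transporter of the brush border, had 0 reads labelled ISC and 56 labelled non-ISC, on 5 circRNAs. Slc5a11, a sodium-coupled carrier of myo-inositol, had 0 against 70 on 7 circRNAs. With 3 reads for the 0 it was 47.9-fold lower, and the upper end of its ratio interval was 0.0264. Slc5a9, another sodium-coupled sugar carrier, had 1 against 8. The group's sum was 1 against 138, a ratio of 0.00353 (8.88e-05 to 0.0200), and 5 of its 6 members had no reads labelled ISC. In Slc5a1, 49 of the 56 reads lay on 2 circRNAs that end at the same exon, exons 2 to 5 with 37 reads and exons 3 to 5 with 12. Slc5a11 showed the same form, with 63 of 70 reads on 3 circRNAs that end at exon 11.

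Ion carriers of the epithelium were also lower. Slc4a4, the electrogenic sodium bicarbonate cotransporter, had 11 reads against 65, a ratio of 0.0825 (0.0393 to 0.158), and over its circRNAs with reads in both libraries 0.406 (0.157 to 1.03), which ends the call. Slc12a2, the sodium, potassium and chloride cotransporter of secreting epithelia, had 0 against 26 on 8 circRNAs, led by exons 3 to 5 with 10 reads. Slc9a2, a sodium and proton exchanger of the apical membrane, had 0 against 18, of which 15 were on a circRNA of exons 4 to 5. Slc13a1, a sulfate carrier, had 0 against 5. Over the 8 ion carriers the sums were 15 and 117, a ratio of 0.0625 (0.0339 to 0.107).

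Slc28a1, which concentrates pyrimidine nucleosides, had 0 reads against 26, on circRNAs of exons 13 to 14 (13 reads), exons 9 to 11 (12 reads) and 1 more. With 3 reads for the 0 it was 17.8-fold lower, and the upper end of its ratio interval was 0.0743. Slc5a12, a sodium-coupled monocarboxylate carrier, had 0 against 5. Carriers of bile acids and fatty acids had 1 read against 6, a ratio of 0.0812 (0.00177 to 0.670). Those of metals had 3 against 2 (ratio 0.731, 0.0838 to 8.75), and a difference was not detectable at this depth.

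**Figure D3:**
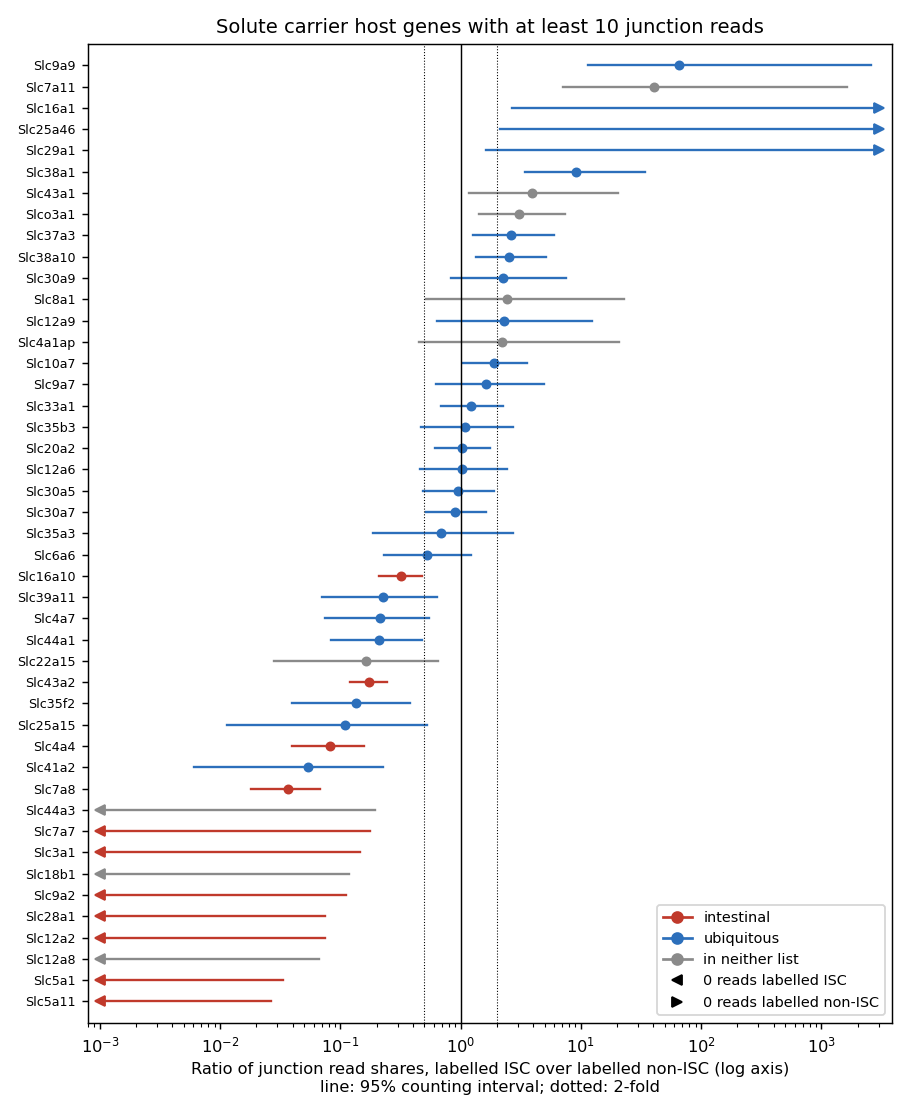
Ratio of junction read shares, labelled ISC over labelled non-ISC (log axis), for 45 of the 46 solute carrier host genes with at least 10 junction reads, with 95% counting intervals as lines, colours for the lists, arrows for genes with 0 reads in 1 library, and dotted lines at 2-fold. All 11 intestinal genes lie left of the dotted line at the lower 2-fold, and the ubiquitous genes run from Slc41a2 at 0.0542 to Slc9a9 at 65.3 and 3 genes with no reads labelled non-ISC.

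Among ubiquitous carriers, 1 endosomal exchanger led. Slc9a9, a sodium and proton exchanger of recycling endosomes, had 134 reads labelled ISC on 12 circRNAs and 1 read labelled non-ISC, a ratio of 65.3 (11.5 to 2599). Slc9a7, an exchanger of the same family in the trans-Golgi, had 20 against 6, a ratio of 1.62 (0.629 to 4.94), and the intervals of the pair do not overlap.

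The leading Slc9a9 circRNA, with 104 of the 134 reads, was unlike the other leading members in its structure. It starts at the first base of exon 15 of 16 but ends inside the last exon, 135 bases past the stop codon (95229063 to 95229065), where no exon end is annotated. The transcript continues with the bases gt after that point, the letters with which an intron usually begins. Its spliced length is 469 nt if the intron between exons 15 and 16 is removed. The library labelled non-ISC had 1 read on it. The other 11 Slc9a9 circRNAs held 1 to 8 reads each in the library labelled ISC and none labelled non-ISC.

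The other ubiquitous carriers called higher in the library labelled ISC act in several compartments. Slc38a1, a sodium-coupled glutamine carrier of the plasma membrane, had 75 reads against 4, a ratio of 9.14 (3.43 to 34.4). Slc38a10 of the same family had 62 against 12, a ratio of 2.52 (1.34 to 5.14), and Slc37a3, a lysosomal protein of the sugar-phosphate carrier family, had 48 against 9, a ratio of 2.60 (1.26 to 6.03). By the deposited counts, which the authors list beside the junction reads, Slc38a10 and Slc37a3 turned to 0.365 and 0.451, a scale on which 1 entry outside these genes holds 79.1% of the counts labelled ISC. Over circRNAs with reads in both libraries, their ratios were 1.91 (0.997 to 3.95) and 2.06 (0.978 to 4.84), which ends both calls.

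A further 3 had no junction reads labelled non-ISC. Slc16a1, the proton-coupled lactate carrier, had 22 against 0 on a single circRNA of exons 2 to 3, and that circRNA is listed for the library labelled non-ISC with a deposited count of 82 and 0 junction reads. Slc25a46, a protein of the outer mitochondrial membrane, had 18 against 0, and Slc29a1, the equilibrative nucleoside carrier, 14 against 0. Taking 3 reads for the 0, these were 3.57-fold, 2.92-fold and 2.27-fold higher, and the lower ends of their intervals were 2.67, 2.14 and 1.62. By deposited counts Slc16a1 turned to 0.415 (0.310 to 0.558) and Slc25a46 to 0.929 (0.695 to 1.26). On that scale Slc29a1 was 8.46-fold higher with 3 counts for the 0, and the lower end of its interval was 6.73.

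The 6 ubiquitous carriers called lower were Slc44a1, a choline carrier (9 against 21), Slc4a7, an electroneutral sodium bicarbonate cotransporter (7 against 16), Slc41a2, a magnesium carrier (2 against 18), Slc39a11, a zinc carrier (6 against 13), Slc35f2 (5 against 18) and the mitochondrial ornithine carrier Slc25a15 (2 against 9). Their ratios ran from 0.0542 for Slc41a2 to 0.225 for Slc39a11.

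By share of junction reads, 4 well covered ubiquitous carriers had intervals that include 1. Slc20a2, a phosphate carrier, had 48 reads against 23 (ratio 1.02, 0.607 to 1.75), and Slc33a1, which brings acetyl-CoA into the endoplasmic reticulum, had 45 against 18 (ratio 1.22, 0.692 to 2.24). The zinc carriers of the secretory pathway Slc30a7 and Slc30a5 had 39 against 21 (ratio 0.905, 0.520 to 1.62) and 29 against 15 (ratio 0.942, 0.489 to 1.89). Slc10a7 had 58 against 15 and, at 1.88 (1.05 to 3.58), fell short of 2-fold. The upper ends of the other 4 intervals run from 1.62 to 2.24, so differences up to those sizes are not excluded. On other scales some of these intervals leave out 1: with library totals Slc20a2 was at 2.87 (1.71 to 4.94) and Slc33a1 at 3.43 (1.95 to 6.30), and by deposited counts Slc20a2 was at 0.558 (0.371 to 0.850), Slc33a1 at 2.43 (1.63 to 3.77) and Slc10a7 at 0.274 (0.231 to 0.326).

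Of the 44 host genes in neither list, which include the 3 that are not carriers, 9 had enough reads. Of these 9, 3 were higher (33.3%) and 4 lower (44.4%), against 26.7% and 22.7% over all host genes. Slc4a1ap, which is not a carrier, is among the 9 and was called neither. Slc7a11, the cystine and glutamate antiporter that supplies cystine for glutathione, had 84 reads against 1, a ratio of 40.9 (7.15 to 1636). Slc7a8, of the same family, had a ratio of 0.0367, and the intervals of the pair do not overlap. The organic anion transporter gene Slco3a1 had 50 against 8 (ratio 3.05, 1.43 to 7.44), of which 40 and 8 were on a circRNA of exon 2 alone. Slc43a1, which like Slc43a2 carries branched-chain amino acids, had 24 against 3, a ratio of 3.90 (1.18 to 20.2), on the other side of 1 from Slc43a2 at 0.174. Lower were Slc12a8, of the cation and chloride cotransporter family, with 0 against 29 on 9 circRNAs (14 of the reads on exons 2 to 4), the vesicular polyamine carrier gene Slc18b1 with 0 against 17, Slc44a3 with 0 against 11 and Slc22a15 with 3 against 9.

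Single circRNAs gave a like picture at lower counts. Among solute carriers, 50 circRNAs reached 10 reads, of which 10 were higher with the ISC label and 17 (34.0%) were lower. Over all 3659 circRNAs of that depth the shares higher and lower were 32.4% and 23.0%. Of the 14 from intestinal genes, 12 were lower and 0 higher. Of the 28 from ubiquitous genes, 7 were higher and 2 lower. In 17 of the 50, all reads were in 1 library: 11 had 0 reads labelled ISC and 6 had 0 labelled non-ISC. Among all 3659, 328 had 0 labelled ISC and 789 had 0 labelled non-ISC. Of the 17, 15 have no entry in the other library, so their 0 is an absent line and not a listed value. In 4 of the 17, other circRNAs of the same gene had reads in that other library: these came from Slc10a7, Slc30a9, Slc4a4 and Slc7a11. Over circRNAs with reads in both libraries, which leaves absent entries out, the intestinal ratio was 0.147 (0.117 to 0.183) and the ubiquitous ratio 1.40 (1.19 to 1.66).

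**Figure D4:**
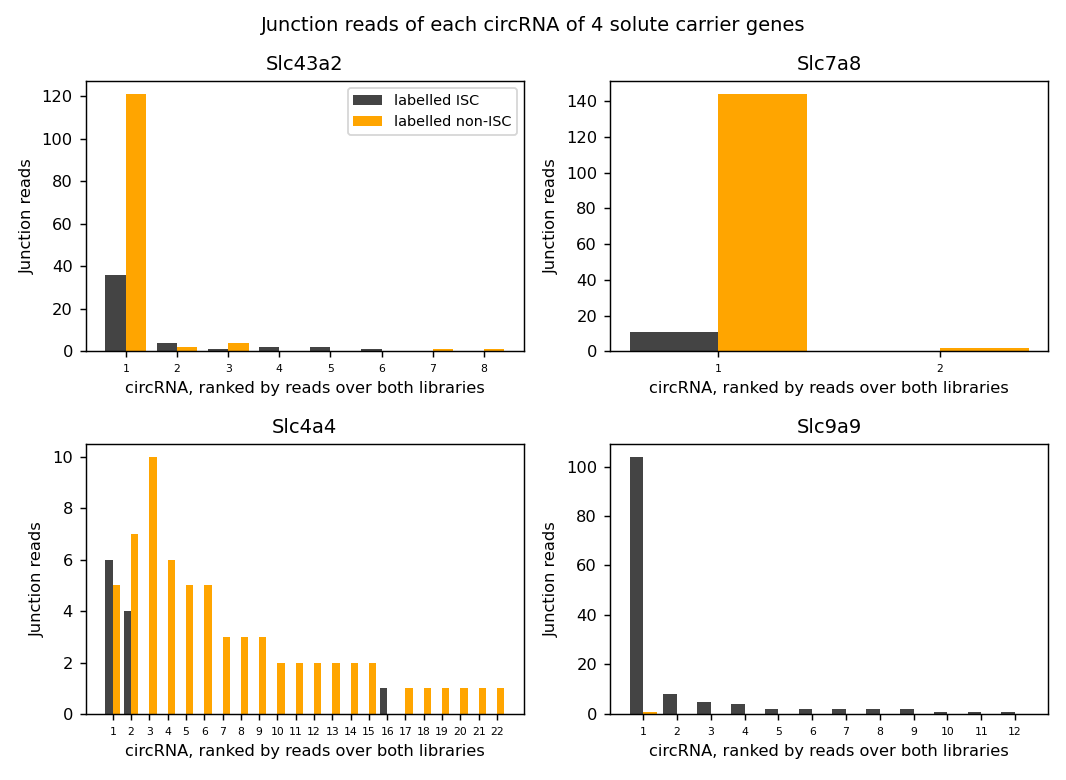
Junction reads of each circRNA of Slc43a2, Slc7a8, Slc4a4 and Slc9a9, ranked within the gene by reads over both libraries, with dark bars for the library labelled ISC and orange bars for the library labelled non-ISC. Slc43a2, Slc7a8 and Slc9a9 each have 1 dominant circRNA, while the 65 Slc4a4 reads labelled non-ISC are spread over 21 circRNAs with at most 10 reads each.

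The last comparison asked whether a gene used the same circRNA in both libraries. In 11 of the 13 solute carrier genes that reached 10 reads in each library, it did: the circRNA with the most reads was the same. By deposited counts, on which 53 genes reached that minimum, the leader was the same in 14. Other host genes were not counted in this way, so neither share can be called particular to solute carriers. By junction reads, the leader of Slc7a8 held 100% (71.5 to 100) of 11 reads labelled ISC and 98.6% (95.1 to 99.8) of 146 labelled non-ISC. Slc16a10 and Slc33a1 were likewise dominated by 1 circRNA, with 96.8% and 94.4% of reads labelled non-ISC and 100% of those labelled ISC. In Slc43a2 the leader held 78.3% (63.6 to 89.1) and 93.8% (88.1 to 97.3). In Slc30a7 the leader, exons 6 to 8, held 64.1% (47.2 to 78.8) of 39 reads labelled ISC and 28.6% (11.3 to 52.2) of 21 labelled non-ISC, where a circRNA of exons 3 to 8 had the same 6 reads.

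Slc4a4 and Slc30a5 were the exceptions. In Slc4a4 the leader labelled ISC, exons 4 to 7 (chromosome 5, 89028293 to 89084718), had 6 of 11 reads there and 5 of 65 in the other library, or 54.5% (23.4 to 83.3) and 7.69% (2.54 to 17.0). The leader labelled non-ISC, exons 7 to 13 (89084642 to 89149433), had 10 of 65 reads and no entry in the library labelled ISC. It is 1 of 5 Slc4a4 circRNAs that start at exon 7, which together had 19 reads labelled non-ISC and 0 labelled ISC. In Slc30a5 the leaders were exons 6 to 11, with 10 reads against 4, and exons 8 to 12, with 0 against 6.

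The exon structure of the members was set beside that of all other circRNAs as a description. Exon ends of a single GENCODE transcript accounted for both ends in 68.3% (61.1 to 74.9) of the members with reads labelled ISC and 73.8% (67.6 to 79.4) of the members with reads labelled non-ISC, where other host genes gave 72.6% and 75.2%. They held 80.5% of the solute carrier reads labelled ISC and 90.1% of those labelled non-ISC, against 88.1% and 88.4% in other genes, and the 104 reads of the Slc9a9 circRNA are not among them. Among members with at least 10 reads over both libraries, 48 of 50 (96.0%) were of this kind, against 92.7% in other genes. The leading Slc9a9 circRNA was not. Exonic members had a median of 3 exons and 483 nt, against 3 exons and 474 nt in other genes.

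Exon 2 was the most frequent first exon among the well covered members. Of the 48 exonic ones with at least 10 reads, 21 began there, 43.8% (29.5 to 58.8), against 35.3% (33.7 to 37.0) in other genes with as many reads, whose share lies inside that interval. None began at exon 1 or ended at the last exon, against 0.628% and 0.0299% in other genes with as many reads. The annotated start codon lay inside 10 of the 48 (20.8%, 10.5 to 35.0), among them the leading circRNAs of Slc38a1, Slc16a1, Slc20a2 and Slc37a3. Coding sequence alone was held by 37 of the 48 (77.1%, 62.7 to 88.0). In other genes with as many reads these shares were 16.7% and 82.6%, which lie inside the 2 intervals. Of all exonic members from protein-coding transcripts, 6 of 72 from intestinal genes (8.33%, 3.12 to 17.3) and 21 of 132 from ubiquitous genes (15.9%, 10.1 to 23.3) held the start codon. The share in other genes was 13.0%, inside both intervals. The introns on either side of the well covered members had medians of 10400.5 nt upstream and 9049.5 nt downstream, against 8716 and 6273 nt in other genes.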

How the data were processed

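From each label 1 library was made of total RNA after removal of ribosomal RNA and RNase R digestion, and sequenced in pairs, per the labels' protocols. Trimmomatic 0.36, FastQC and the build mm9 are named in the submitters' processing notes. Aligner and caller: not given in the sources used here. Each circRNA was deposited by the authors with a count, an RPM value (that count per 1000000 reads of the library) and a count of junction reads, per the file headers. No source used here says how the first count was assigned, so junction reads were used and the deposited counts and RPM served as alternatives.

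The deposited positions were set beside GENCODE release M21 on GRCm38, since no annotation of the named build was used here: 75.2% of starts and 75.3% of ends lie on exon ends, against 0.178% and 0.314% after a shift of 1 base. All coordinates are those of the files, given on GRCm38.

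Reads were summed by host gene or circRNA, and a circRNA absent from 1 file was counted as 0 there. Shares of the library's junction reads were compared as a ratio with an exact conditional 95% interval. With 1 library per label the intervals cover counting error only, and reads without molecular identifiers are not independent molecules. The ratio of ratios is an exact conditional odds ratio, and shares have exact binomial (Clopper-Pearson) intervals. Of the 154 symbols, 153 matched GENCODE. The calling step was tested on simulated data. Python 3.11.15, pandas 2.3.3, numpy 2.4.6, SciPy 1.17.1 and matplotlib 3.10.9 were used.

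The members and lists were chosen with earlier results of these data known. Named genes are intestinal hosts with at least 5 reads, the 10 hosts with most reads in each library, the 8 called hosts per direction with the interval bound farthest from 1, and the 5 circRNAs with most reads per library; other genes were named after their values were seen. Junction sequences show 30 bases on each side where both sides are coding and 15 otherwise. Alternatives changed the scaling, the read minimum, the lists, the treatment of absent entries and the kind of count. Results of 1 host gene are not reported here, though its reads are in the sums and counts.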

Additional observations from a re-analysis of the deposited data

Results flagged for a closer look

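Deposited counts stood on circRNAs without a junction read, in entries that the junction reads leave out and that enter above only where deposited counts are named. In the library labelled non-ISC, 107 entries of solute carrier circRNAs on 82 host genes have 0 junction reads and 8465 deposited counts, which is 32.7% of the deposited counts of solute carriers in that library. Such entries are not particular to solute carriers: 229 of their 336 entries in that library have junction reads, and 12202 of 18324 over all circRNAs do. The library labelled ISC has 0 such entries, as all of its 18438 entries have junction reads. The median of the 107 solute carrier entries without junction reads is 31 counts and the largest 675. Of these 107, the intestinal list has 19 with 2335 counts, the ubiquitous list 67 with 4846 and the host genes in neither list 21 with 1284. The host genes with the most are Slc35e1 with 901, Slc43a2 with 576, Slc3a2, the heavy chain shared by several amino acid exchangers, with 537, and Slc12a7, a potassium and chloride cotransporter, with 534.

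Over all 8174 host genes 7256 have a junction read, and of the 154 solute carrier host genes 131 do. The other 23 of the 154 have 2815 deposited counts labelled non-ISC. They have 0 labelled ISC, where every entry has junction reads. The 23 include Slc35e1 with 901, Slc44a4 with 347, the serotonin transporter Slc6a4 with 257 and the prostaglandin transporter Slco2a1 with 225. Also among them are the mitochondrial phosphate carrier Slc25a3 with 223 and the chloride and bicarbonate exchanger of the colon Slc26a3 with 76.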

How the results depend on the processing

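The intestinal list stayed below an equal share, and below the ubiquitous list, in all alternatives run. The library totals multiply each ratio by 2.82 and the median ratio of shared circRNAs by 1.23. With library totals the summed ratios of all solute carriers, intestinal and ubiquitous carriers were 1.43 (a turned direction), 0.251 and 3.56, with the median ratio 0.627, 0.110 and 1.56, and with deposited counts 0.0933, 0.0128 and 0.214, the last turned. Deposited counts without the largest entry of each library, an alternative chosen after seeing the data, gave 0.333, 0.0456 and 0.763, the last turned; why was not tested. Over circRNAs with reads in both libraries all solute carriers had 0.689, the intestinal list 0.147 and the ratio of ratios 0.105. Without Slc43a2 the intestinal ratio was 0.0690. A narrow intestinal list of 14 host genes had 3 reads labelled ISC against 124, and 3 of the 14 reached 10 reads. It gave 0.0118 and a ratio of ratios of 0.00935, and like the other lists was chosen with earlier results known. Slc25a and Slc35 carriers alone gave 0.658 (turned) and 0.136, where Slc25a carriers by themselves had 1.34 and Slc35 carriers 0.425. Without Slc9a9 the ubiquitous ratio was 1.07, and without its leading circRNA, also chosen after seeing the data, 1.11 (0.977 to 1.27), an interval that includes 1.

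Host genes higher and lower, 10 and 21, became 23 and 14 with library totals, 7 and 13 with reads halved, 16 and 108 with deposited counts, 4 and 5 over circRNAs in both libraries, and 8 and 13 with at least 20 reads. For circRNAs, 10 and 17 became 23 and 13, 4 and 6, 69 and 202, 4 and 6, and 5 and 6 in the same order, and 10 and 34 with at least 5 reads. Shares over all host genes and all circRNAs are given above for the main setting only. The same circRNA led in 4 of 4 solute carrier hosts that reached 20 reads in each library and in 14 of 53 by deposited counts. Leaders were not compared in other host genes. With at least 10 reads in the library labelled ISC or non-ISC, 96.3% and 100% of solute carrier circRNAs lay on exon ends. In other genes these shares were 92.5% and 93.8%. Of 29 named host genes, 5 turned with deposited counts, Slc10a7 to 0.274, Slc37a3 to 0.451, Slc38a10 to 0.365, Slc16a1 to 0.415 and Slc25a46 to 0.929, and 0 turned with library totals. With reads halved and the count of 0 replaced as above, Slc16a1, Slc25a46 and Slc29a1 were 1.79-fold, 1.46-fold and 1.14-fold higher. The lower ends of their intervals were 1.22, 0.962 and 0.703, so those of Slc25a46 and Slc29a1 include 1. Depth limits the rest: 85 of the 131 host genes with reads had fewer than 10. No paired analysis was possible because each label has 1 library.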
